A study of Mus musculus with 14 samples.

Results

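The 10 genes described here are antioxidant genes of the NRF2 and glutathione systems, namely Hmox1, Nqo1, Gclc, Gclm, Slc7a11, Gsr, Srxn1, Prdx1, Txnrd1 and Cat. They were chosen by name, and all 10 were found by symbol among the 55487 genes of the count tables and passed the filter on low counts in every comparison. NRF2 (encoded by Nfe2l2) is a transcription factor that KEAP1 holds in the cytoplasm and marks for degradation. Oxidants and electrophiles modify KEAP1, NRF2 then enters the nucleus, pairs with small MAF proteins and binds antioxidant response elements, a place it shares with the repressor BACH1. Glutathione is made from glutamate, cysteine and glycine and is the main soluble thiol of the cell, and in bone marrow the level of reactive oxygen species is known to bear on whether stem cells stay quiescent.

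RNA was sequenced from 14 mouse libraries to ask how IL-1β alters gene expression in hematopoietic and stromal cells of the marrow. LSK (Lin-Sca1+c-kit+) cells, which hold the stem cells, and LK (Lin-c-kit+) cells, the myeloid progenitors, were sorted from mice whose marrow carried a heterozygous Jak2V617F allele (Mx1Cre; Jak2VF/+), induced with pI-pC. Cre was driven by the interferon-responsive Mx1 promoter, and every LSK and LK library, PBS controls included, came from Jak2VF/+ mice. The study describes mice on this schedule as irradiated C57BL/6 recipients of induced Jak2VF/+ marrow, while its sequencing methods do not mention a transplant, so whether these libraries come from that cohort is not stated. Mice were given PBS or IL-1β intraperitoneally in 3 doses per week for 16 weeks, and each population has 3 PBS and 2 IL-1β libraries. The dose was 0.5 μg in the study's text, whereas the labels write it in g. Mesenchymal stromal cells (MSC) were grown for 21 days from C57BL/6 marrow and kept with PBS (2 libraries) or 5 ng/ml IL-1β (2 libraries) for 72 h. The reporting summary gives the age of the mice used as 6 to 8 weeks, and no label gives the age at harvest.

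Counted read pairs ranged from 4393233 to 30871055 per library, and all 4 IL-1β libraries of LSK and LK cells were shallower than the PBS libraries (4393233 to 8641124 against 12172400 to 18544346). LSK PBS replicate 2 stood apart from the other PBS libraries of LSK cells, with 4083 and 4088 of 15393 genes more than 2-fold away from replicates 1 and 3, against 1513 between those. In the sorted populations Ly6a (Sca1) was at 14.5 to 40.6 CPM (counts scaled to a common library total) in LSK and 0.27 to 1.96 in LK libraries. Kit was at 275 to 636 in both. These genes follow the Sca1 and c-kit gates and do not show how well the lineage gate was met. The MSC libraries held the mesenchymal gene Cxcl12 (70.6 to 314 CPM) but also the leukocyte gene Ptprc (304 to 403) and the macrophage gene Adgre1 (660 to 1753), while Lepr, a marker of stromal cells in marrow, was at 0 in both PBS libraries and at most 0.514 with IL-1β. Fewer cells of a type and less RNA per cell cannot be told apart in such libraries.

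RefSeq promoter sequences (GRCm38.p6, from 250 bases before to 50 after a start site) were at hand for 7 members in 9 windows, with none for Hmox1, Gclc and Gsr. The 250 bases before the start site are shown 5′ to 3′ on the strand of the gene for the 3 members with an entry that passed the test between treatments in some population. They are also shown for Prdx1, whose level did not pass that test but which held both of the motifs marked before its start site. The window of Srxn1, which did not pass either, held both too, but its response element core lay after the start site. Capitals mark matches to the core of the antioxidant response element (TGACNNNGC) or to the AP-1 site (TGANTCA) on either strand. They come from chr3:122245307-122245556 (plus strand, Gclm), chr3:50443614-50443863 (minus strand, Slc7a11), chr8:107403206-107403455 (minus strand, Nqo1) and chr4:116685349-116685598 (plus strand, Prdx1).
Gclm: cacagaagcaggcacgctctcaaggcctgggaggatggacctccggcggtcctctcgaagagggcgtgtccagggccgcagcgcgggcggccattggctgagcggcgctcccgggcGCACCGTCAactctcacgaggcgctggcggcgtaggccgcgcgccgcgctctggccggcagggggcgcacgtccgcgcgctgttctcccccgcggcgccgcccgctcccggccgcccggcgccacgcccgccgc
Slc7a11: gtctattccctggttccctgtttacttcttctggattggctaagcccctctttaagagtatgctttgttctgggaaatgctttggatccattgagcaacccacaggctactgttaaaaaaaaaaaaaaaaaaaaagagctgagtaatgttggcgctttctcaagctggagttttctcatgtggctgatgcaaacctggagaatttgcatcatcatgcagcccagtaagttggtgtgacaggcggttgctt
Nqo1: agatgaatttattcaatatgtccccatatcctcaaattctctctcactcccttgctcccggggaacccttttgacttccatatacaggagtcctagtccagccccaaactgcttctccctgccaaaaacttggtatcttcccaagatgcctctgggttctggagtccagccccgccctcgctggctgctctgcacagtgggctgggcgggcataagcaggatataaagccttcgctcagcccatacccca
Prdx1: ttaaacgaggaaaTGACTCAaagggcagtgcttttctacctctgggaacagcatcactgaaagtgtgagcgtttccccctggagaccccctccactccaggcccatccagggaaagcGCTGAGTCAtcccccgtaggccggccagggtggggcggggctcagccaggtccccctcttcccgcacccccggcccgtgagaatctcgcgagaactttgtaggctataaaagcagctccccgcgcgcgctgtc

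The response element core was present in the windows of 4 members, and 12.4% of all 32851 RefSeq windows of 300 bases held it. In Gclm it began 134 bases before the start site and read TGACGGTGC on the minus strand. In Prdx1 it began 133 bases before the start site and read TGACTCAGC, so that it overlapped an AP-1 match. Srxn1 held one beginning 28 bases after the start site (TGACCTAGC), and the second of the 3 windows of Txnrd1 held TGACAAAGC, beginning 92 bases before its start site. AP-1 matches, present in 7.81% of all windows, were found in Srxn1 (102 and 45 bases before the start site) and Prdx1 (237 and 131). A loose NF-κB pattern (GGG, any 5 bases and CC), present in 50.8% of windows, had 1 to 3 places in Gclm, Srxn1, Slc7a11, Prdx1 and Cat and in the second window of Txnrd1. Nqo1, Slc7a11 and Cat had no match to the first pair of motifs, which says only that these letters are not in these windows. A match is a description of letters and not of a bound site.

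The members fell into groups by level. To compare genes and populations, counts were scaled by TMM over the 14 libraries and divided by gene length (RPKM, read pairs per kilobase at a common library size). For 6 of the 10 members, all 4 MSC libraries lay above all 10 sorted libraries, and for the other 4 the ranges overlapped. Among the 15393 genes compared, 26.8% lay above and 19.4% below in the same way. MSC differ from the sorted cells in genotype, culture, exposure and the cell types their libraries hold, so these levels are a description. The 18 macrophage markers summed to 15161 to 35868 CPM in the MSC libraries and to 81.5 to 234 in the sorted libraries. The 15 mesenchymal markers summed to 1604 to 4438 CPM in the MSC libraries. The part of macrophages in the levels of the members was not tested.

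**Figure D1:**
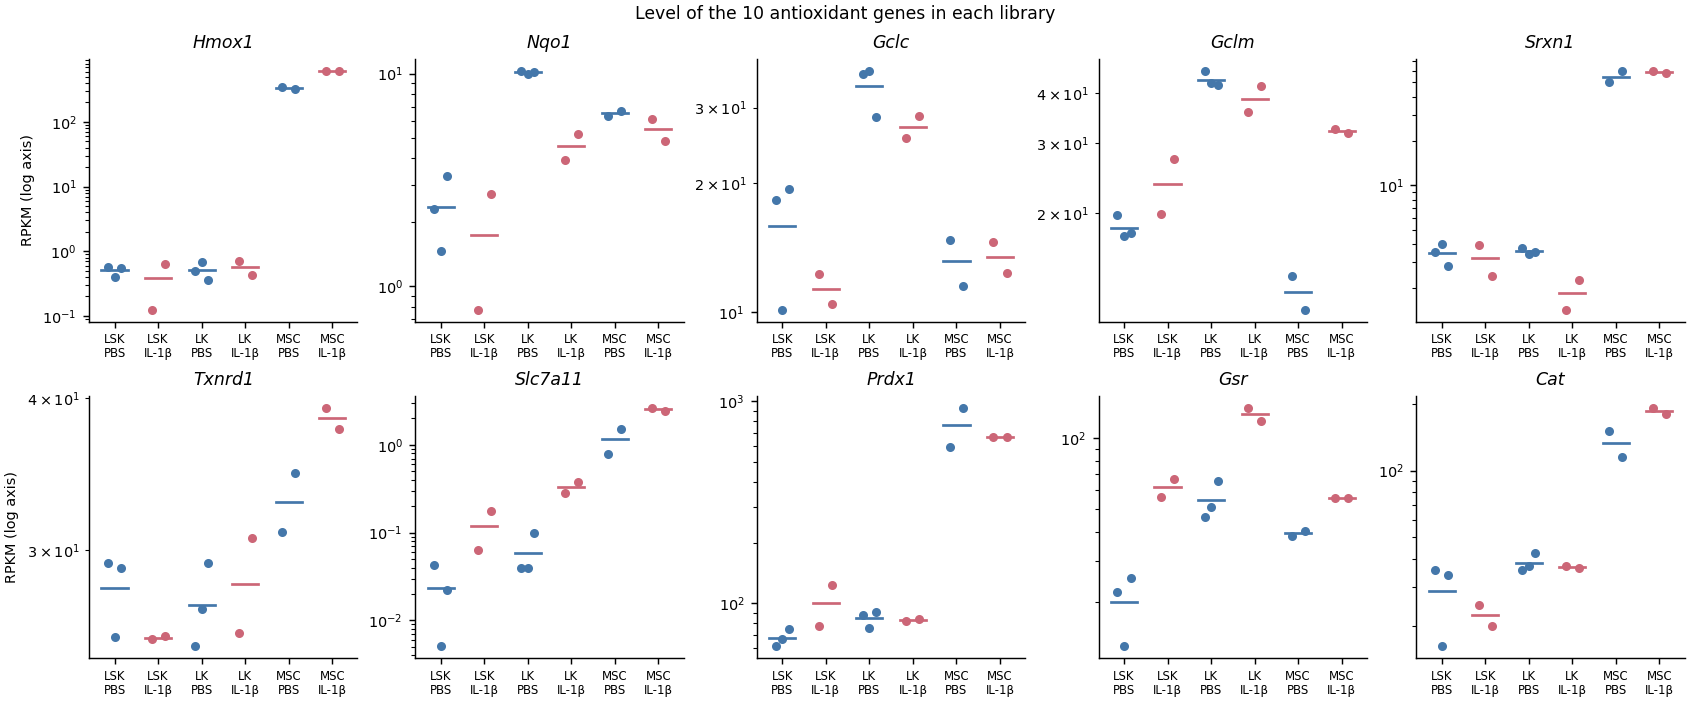
RPKM (log axis, its own range in each panel) of the 10 members in each of the 14 libraries, with PBS libraries in blue and IL-1β libraries in red, points for libraries and bars for group means (n = 2 or 3). Hmox1, Srxn1, Txnrd1, Slc7a11, Prdx1 and Cat are higher in all 4 MSC libraries than in any LSK or LK library, and Nqo1 is highest in LK cells with PBS.

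Hmox1, the heme oxygenase that opens the heme ring and releases iron, showed the widest gap in level. It stood at 323 and 344 RPKM in MSC with PBS and at 603 and 613 with IL-1β, but at 0.125 to 0.697 in the 10 sorted libraries, where it rested on only 2 to 24 read pairs. Prdx1, a peroxiredoxin that reduces hydrogen peroxide, was at 597 to 931 RPKM in MSC and at 61.5 to 123 in the sorted cells. Srxn1, the sulfiredoxin that repairs over-oxidized peroxiredoxins, was at 50.1 to 59.8 against 1.43 to 4.01. Cat, the catalase of peroxisomes, was at 115 to 192 against 16.2 to 42.3. Slc7a11, the light chain of the cystine importer, was low everywhere but lowest in the sorted cells, with 0.794 to 2.66 RPKM in MSC and 0.00508 to 0.374 elsewhere. Txnrd1, which reduces cytosolic thioredoxin, had the smallest ratio of highest to lowest level, from 25.0 to 30.7 RPKM in sorted cells and from 31.0 to 39.3 in MSC.

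The other 4 members were not highest in MSC. Nqo1, a quinone reductase that spends NADPH, was at 10.0 to 10.3 RPKM in LK cells with PBS, 4.83 to 6.65 in MSC, 3.93 and 5.17 in LK cells with IL-1β and 0.776 to 3.32 in LSK cells. Gclc and Gclm are the catalytic and the modifier subunit of glutamate-cysteine ligase, the rate-limiting enzyme of glutathione synthesis. Gclc was at 28.5 to 36.5 RPKM in LK cells with PBS and 25.5 and 28.7 with IL-1β, which overlapped, and all LK libraries lay above the LSK (10.1 to 19.4) and MSC libraries (11.5 to 14.7). Gclm was highest in LK cells with PBS (41.9 to 45.4), with LK cells with IL-1β just below (35.8 and 41.6), although these groups overlapped in CPM scaled within LK cells. They were followed without overlap by MSC with IL-1β (31.8 and 32.5), LSK cells with IL-1β (19.9 and 27.4), LSK cells with PBS (17.5 to 19.7) and MSC with PBS (11.5 and 13.9). Gsr, glutathione reductase, which regenerates reduced glutathione with NADPH, led in LK cells with IL-1β (118 and 135 RPKM), followed by LSK cells with IL-1β (56.1 and 67.2). MSC with IL-1β (55.5 and 55.8) overlapped LK cells with PBS (46.0 to 65.8), and MSC with PBS (38.4 and 40.4) and LSK cells with PBS (13 to 25.4) came last.

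The members were then compared between treatments within each population. Counts were tested by edgeR's quasi-likelihood method across all genes of a population, with Benjamini-Hochberg adjustment, and a gene was called when the adjusted p was under 0.05 and the log2 fold change exceeded 0.5 in size. For single members CPM is given after TMM scaling within a population. The study gives its n for LSK and LK cells by treatment of the mice, but no label names the mouse or culture behind a library, so the p-values measure the spread between libraries, which may in part be technical.

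**Figure D2:**
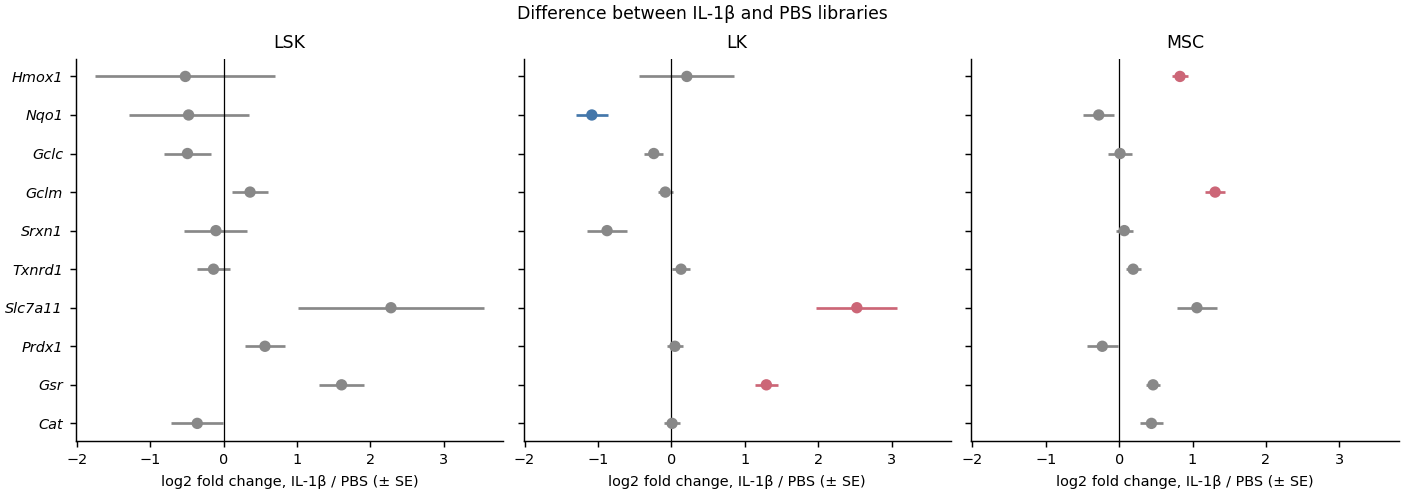
Log2 fold change with IL-1β against PBS (horizontal axis, points ± SE) for each member in LSK (3 PBS and 2 IL-1β libraries), LK (3 and 2) and MSC (2 and 2), with members called higher in red, called lower in blue and not called in grey. Gsr and Slc7a11 are called higher and Nqo1 lower in LK cells, Hmox1 and Gclm are called higher in MSC, and no member is called in LSK cells.

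In LK cells, Gsr and Slc7a11 rose and Nqo1 fell with IL-1β, while the 7 others were not called. The 2 of 10 members called higher and 1 called lower compare with 6.77% of 12835 genes called higher and 2.57% called lower. The members had a median log2 fold change of 0.03 and all genes one of -0.03. Gsr (chromosome 8, 33652523 to 33698163) was at 129, 144 and 188 CPM with PBS and at 403 and 350.4 CPM with IL-1β. Both IL-1β libraries lay far above the 3 PBS libraries, a 2.45-fold rise (log2 fold change 1.29 ± 0.16 SE, adjusted p = 0.00451). Slc7a11 (chromosome 3, 49892526 to 50443614) stood at 0.6, 0.6 and 1.4 CPM with PBS and at 4.2 and 5.6 CPM with IL-1β, from 7 to 35 read pairs per library. The groups did not overlap and the log2 fold change was 2.53 ± 0.55 (adjusted p = 0.0256).

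Nqo1 (chromosome 8, 107388225 to 107403206) moved the other way in LK cells. It was at 16.3, 15.9 and 16.3 CPM with PBS and at 6.6 and 8.7 CPM with IL-1β, and the PBS libraries were almost alike and all above both IL-1β libraries. The log2 fold change was -1.08 ± 0.22 (adjusted p = 0.0184). Srxn1 had the same order, at 10.7, 9.9 and 10.3 CPM with PBS against 4.4 and 6.9 CPM with IL-1β, but its log2 fold change of -0.88 ± 0.28 did not pass (adjusted p = 0.0863). In all, 2 members lay wholly higher and 2 wholly lower with IL-1β, against 23.5% and 22.2% of all genes. The intervals were narrow for Cat (95% interval -0.25 to 0.26 on the log2 scale), Prdx1 (-0.20 to 0.29), Gclm (-0.31 to 0.15), Txnrd1 (-0.14 to 0.40) and Gclc (-0.53 to 0.05), and wide for Hmox1 (-1.27 to 1.69), which rested on 5 to 24 read pairs.

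Calls changed when libraries were left out, while the differences stayed. Without LK IL-1β replicate 1 the remaining IL-1β library is assumed to vary like the PBS libraries, and the log2 fold changes of Gsr (1.18, adjusted p = 0.0812), Slc7a11 (2.71, 0.184) and Nqo1 (-0.91, 0.229) were then not called in edgeR's test. Of the 3, Gsr alone kept its call when LSK and LK libraries were fitted together. Slc7a11 was also not called without PBS replicate 1 (0.0845), PBS replicate 2 (0.0824) or IL-1β replicate 2 (0.184), at log2 fold changes of 2.28 to 2.32, nor was Nqo1 without the same 3 libraries (0.0645, 0.0585 and 0.0760), at -1.07 to -1.28. Without PBS replicate 3, Srxn1 was called lower as well (0.0403).

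**Figure D3:**
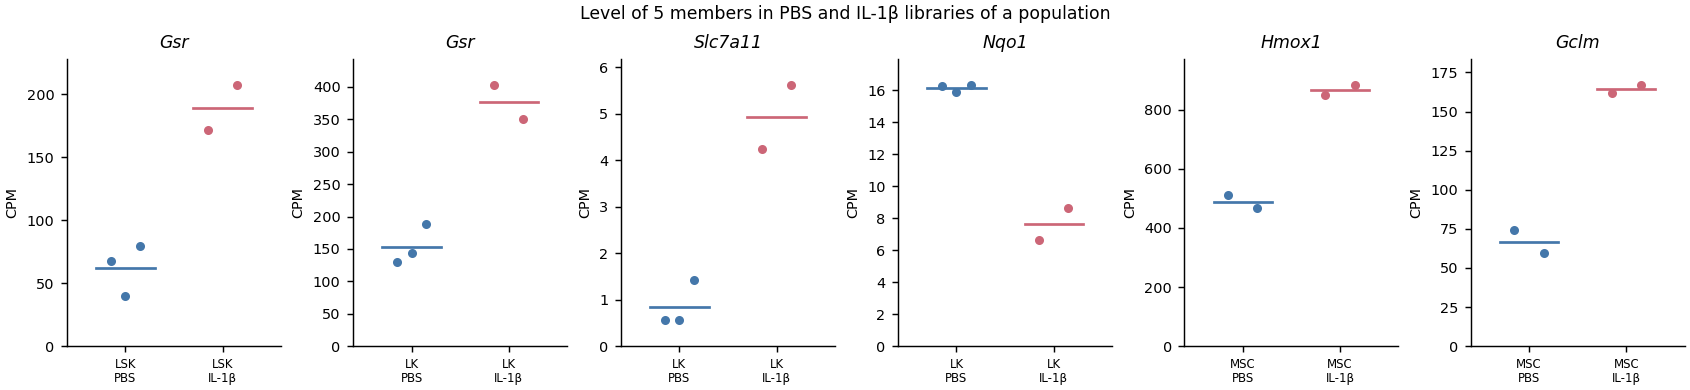
CPM (linear axis from 0, its own range in each panel) of Gsr in LSK and LK cells, Slc7a11 and Nqo1 in LK cells, and Hmox1 and Gclm in MSC, with a point for each library and a bar for the group mean. The PBS and IL-1β libraries do not overlap in any of the 6 panels, and Nqo1 is the 1 gene shown that is lower with IL-1β.

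In LSK cells no member was called, and Gsr came closest. It was at 67.2, 39.6 and 79.3 CPM with PBS and at 172 and 207 CPM with IL-1β, and both IL-1β libraries were above all PBS libraries. The log2 fold change was 1.61 ± 0.31, with an adjusted p of 0.057 in edgeR's test. By this rule 0.32% of 13132 genes were called higher and 0.312% lower in LSK cells, and 1 member had an unadjusted p under 0.05, against 18.5% of all genes. DESeq2 called Gsr (adjusted p = 0.000166), as did the fit over LSK and LK libraries together (0.00832) and edgeR's test without PBS replicate 2 (0.0357) or PBS replicate 3 (0.0140). It was not called with limma-voom, other size factors or a fixed minimum count, nor without PBS replicate 1. With any one library left out, its log2 fold change was 1.39 to 1.82.

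Of the other members, Slc7a11 rested on 1 to 11 read pairs per library in LSK cells, at 0.7, 0.1 and 0.4 CPM with PBS and 1.0 and 2.7 CPM with IL-1β, and its log2 fold change of 2.28 ± 1.26 was not called (adjusted p = 0.359). Prdx1 was at 207, 225.5 and 259 CPM with PBS and at 262 and 419 with IL-1β (log2 fold change 0.56 ± 0.27, adjusted p = 0.294). Together with Gsr, Slc7a11, Prdx1 and Gclm made 4 members whose IL-1β libraries all lay above the PBS libraries, and 0 lay wholly below, against 18.2% and 21.4% of all genes. The 7 members besides Gsr, Slc7a11 and Prdx1 had log2 fold changes from -0.52 (Hmox1) to 0.36 (Gclm). For Nqo1 the 95% interval ran from -2.31 to 1.36 on the log2 scale, so a fall of the size seen in LK cells was not detectable here. The spread between LSK libraries was larger than elsewhere, with a biological coefficient of variation of 0.377 against 0.183 in LK cells and 0.149 in MSC.

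Whether LSK and LK cells responded unequally was tested as an interaction over the 10 libraries. No member was called, and 0 had an unadjusted p under 0.05, where 0.0217% of 13839 genes were called higher and 0.00723% lower in LK than in LSK cells and 14.2% had an unadjusted p under 0.05. DESeq2 also called 0 members. For Gsr the response in LK minus that in LSK cells was -0.27 on the log2 scale (95% interval -1.10 to 0.55). For Nqo1 it was -0.51 (-2.06 to 1.04) and for Slc7a11 0.30 (-2.62 to 3.23), with the widest interval for Slc7a11.

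Markers of several cell types moved with treatment, those of granulocytic cells in the direction of Gsr. The summed level of 13 neutrophil granule genes, such as Mpo and Elane, was 2153 to 3387 CPM in LSK cells with PBS and 9965 to 11360 with IL-1β, and 4436 to 9739 against 18535 to 21943 in LK cells, with none of the 13 at 0. In LK cells 8 of the 12 tested were called higher and 0 lower, and in LSK cells 5 of 12 and 0. The 8 mast cell and basophil markers summed to 152 to 396 in LK cells with PBS and 1208 to 2336 with IL-1β, with 1 at 0 in the IL-1β libraries. The 14 erythroid markers summed to 5259 to 7009 with PBS and 3365 to 3779 with IL-1β in LK cells, with none at 0, and 5 were called lower. The 10 lymphoid markers went from 31.3 to 43.4 CPM down to 3.8 to 7.7 in LK cells (2 of 2 tested called lower, 7 at 0 with IL-1β), and the 9 megakaryocyte markers from 358 to 387 down to 260.4 to 357 (2 of 7 called lower). In LSK cells the lymphoid markers summed to 367 to 607.5 CPM with PBS and 34.6 to 65.7 with IL-1β (2 of 3 called lower, 6 at 0 with IL-1β), the mast cell and basophil markers to 89.0 to 147 and 304 to 417 (2 of 8 called higher) and the 10 stem and progenitor markers to 1419 to 2194 and 986 to 1147 (1 of 10 called lower). The 18 macrophage markers went down, from 130 to 191 CPM with PBS to 81.5 to 101 with IL-1β in LK cells (2 of 12 tested called lower, 0 higher). In LSK cells they summed to 182 to 234 CPM with PBS and 98.4 to 146 with IL-1β (0 of 12 called). In both populations 2 of the 18 were at 0 with IL-1β. The part of all these cells in the results for Gsr, Slc7a11 and Nqo1 was not tested. Depth also differed with treatment. After all libraries were thinned to equal depth the 3 calls in LK cells stood, and Gsr was called in LSK cells too (adjusted p = 0.0452).

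In MSC, Hmox1 and Gclm rose with IL-1β, and no member was called lower. The 2 of 10 members called higher compare with 7.14% of 13239 genes called higher and 4.31% called lower. The members had a median log2 fold change of 0.32 and all genes one of 0.00. Hmox1 (chromosome 8, 75093621 to 75100589) was at 509.5 and 466 CPM with PBS and at 851 and 882.5 CPM with IL-1β. The 2 pairs of libraries were well apart, a 1.78-fold rise (log2 fold change 0.83 ± 0.11, adjusted p = 0.0117). Gclm (chromosome 3, 122245557 to 122270732) was at 74.0 and 59.4 CPM with PBS and at 162 and 167 CPM with IL-1β, a 2.48-fold rise (log2 fold change 1.31 ± 0.13, adjusted p = 0.00554). Its partner subunit Gclc was at 46.9 and 35.8 CPM with PBS and at 43.5 and 38.8 with IL-1β, with a 95% interval of -0.38 to 0.41 on the log2 scale.

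Slc7a11 and Gsr had the next largest differences in MSC. Slc7a11 was at 9.3 and 17.5 CPM with PBS and at 29.4 and 28.5 CPM with IL-1β, without overlap (log2 fold change 1.06 ± 0.28, adjusted p = 0.0638), and DESeq2 (0.0154) and limma-voom (0.0377) called it. Gsr was at 89.4 and 91.7 CPM with PBS and at 121 and 128 with IL-1β, and its adjusted p of 0.0377 passed while its log2 fold change of 0.46 ± 0.10 lay under the fold threshold. Cat was at 334 and 249 CPM with PBS and at 398 and 391 with IL-1β (0.44 ± 0.16, adjusted p = 0.134). In total 6 members lay wholly higher with IL-1β and 1 (Nqo1, at 8.3 and 8.5 against 7.5 and 6.3 CPM) wholly lower, against 31.3% and 29.8% of all genes. With a single library left in an arm, which is then assumed to vary like the other arm, Hmox1 was lost without IL-1β replicate 1 (adjusted p = 0.226) or 2 (0.207), and Gclm likewise (0.112 and 0.0851). Over these fits the log2 fold change ranged from 0.73 to 1.64 for Slc7a11 and from 0.25 to 0.68 for Cat.

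Summed macrophage, mesenchymal and neutrophil granule markers were higher in MSC with IL-1β, as were Hmox1 and Gclm. The summed level of 18 macrophage genes was 15161 to 19420 CPM in MSC with PBS and 35561 to 35868 with IL-1β, none was at 0, and 9 of the 17 tested were called higher and 0 lower. Most of that rise was Lyz2, at 4848 to 7332 CPM with PBS and 19631 to 20180 with IL-1β. Not all members of the list were higher, since Cd68 was at 1099.7 to 1562 CPM with PBS and 841 to 998 with IL-1β, and Tyrobp at 787 to 799 and 606 to 607. The 13 neutrophil granule markers summed to 21.4 to 74.3 and 123 to 125 (3 of 5 tested called higher, 2 at 0 with IL-1β). The 15 mesenchymal markers summed to 1604 to 3136 with PBS and 4028 to 4438 with IL-1β (2 of 13 tested called higher and 0 lower), with Lepr at 0 in the PBS libraries. Other sums fell. The 9 megakaryocyte markers went from 681 to 773 CPM down to 456 to 461 (of 4 tested, 2 called higher and 1 lower). The 10 lymphoid markers went from 283 to 333 CPM down to 184 to 194 (of 2 tested, 0 called higher and 1 lower). The part of these cells in the results for Hmox1 and Gclm was not tested.

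LK cells were next compared with LSK cells. With PBS, Nqo1, Gclc, Gclm and Gsr were higher in LK cells and no member was lower. The 4 of 10 members called higher compare with 12.4% of 13839 genes called higher and 19.4% lower, and the same 4 lay wholly above LSK cells, against 21.8% of genes above and 26.2% below. Nqo1 had the largest difference, 3.90-fold (log2 fold change 1.96 ± 0.43, adjusted p = 0.00465), with LK libraries at 10.3, 10.0 and 10.1 RPKM and LSK libraries at 2.30, 1.46 and 3.32. Gsr differed by 1.30 ± 0.24 (adjusted p = 0.00191), Gclm by 1.11 ± 0.16 (0.00041) and Gclc by 0.95 ± 0.23 (0.00851) on the log2 scale. The other 6 were not called, and for Txnrd1 the 95% interval ran from -0.49 to 0.15 and for Prdx1 from -0.20 to 0.60.

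**Figure D4:**
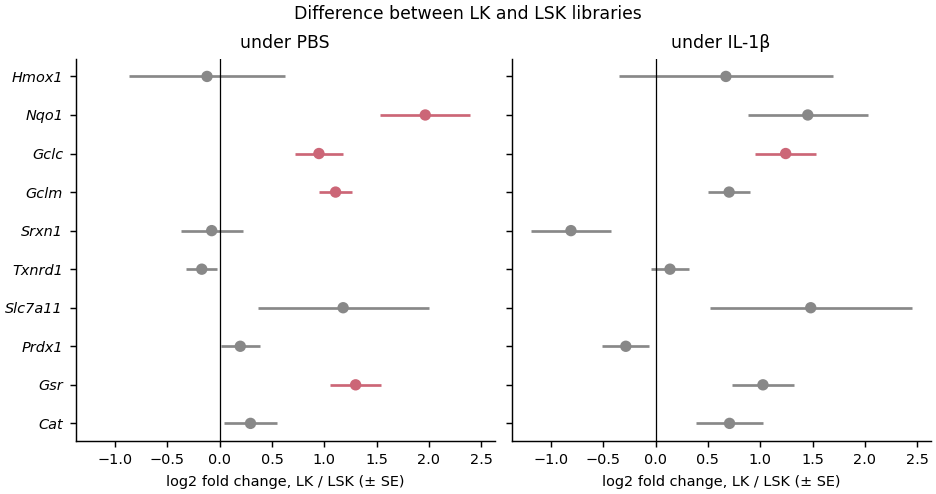
Log2 fold change of LK against LSK cells (horizontal axis, points ± SE) for each member under PBS (3 libraries each) and under IL-1β (2 each), with members called higher in LK cells in red and those not called in grey. Nqo1, Gclc, Gclm and Gsr are called under PBS, and Gclc under IL-1β.

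With IL-1β 1 member was called, Gclc, at 25.5 and 28.7 RPKM in LK and 12.2 and 10.4 in LSK cells. The 1 of 10 members compares with 2.27% of genes called higher and 2.13% lower. Gclc differed by 1.24 ± 0.29 on the log2 scale (adjusted p = 0.0346), and it lost its call in limma-voom (0.110) and without any one of the 4 IL-1β libraries (0.0892 to 0.215). Gclm (0.70 ± 0.20, adjusted p = 0.0671), Gsr (1.03 ± 0.30, 0.0726) and Nqo1 (1.45 ± 0.57, 0.169) differed in the same direction without being called. Here 6 members lay wholly above and 1 wholly below LSK cells, against 29.8% and 27.1% of genes. Erythroid markers separated the populations, at 876 to 1162 CPM in LSK and 5259 to 7009 in LK cells with PBS, and all 14 were called higher in LK cells. Neutrophil granule markers differed too (2153 to 3387 against 4436 to 9739, with 6 of 13 called higher). The stem and progenitor markers summed to 1419 to 2194 in LSK and 533 to 759.6 in LK cells (9 of 10 called lower). Of the megakaryocyte markers 5 of 8 were called lower and 1 higher in LK cells, and of the lymphoid markers 2 of 3 were called lower. Their part in the differences of the 4 members was not tested.

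Of the 12 regulators of the pathway, 1 was called higher and 1 lower with IL-1β in LK cells, where 6.77% and 2.57% of all genes were. In LK cells Nfe2l2 averaged 153 ± 4.78 CPM in the 3 PBS libraries and 123 ± 2.77 CPM in the 2 IL-1β libraries (± SD), a log2 fold change of -0.31 ± 0.09 that was not called (adjusted p = 0.0674). It stood at 283 and 382 CPM on average in MSC with PBS and IL-1β (0.43 ± 0.11, adjusted p = 0.0522) and differed by -0.21 ± 0.36 in LSK cells. In LK cells with PBS it was higher than in LSK cells (1.11 ± 0.26). Keap1 was not called in any of the 6 comparisons, with log2 fold changes from -0.26 to 0.21. Bach1, the repressor, rose in LK cells (0.56 ± 0.13, adjusted p = 0.0341), and in MSC its adjusted p of 0.0298 passed while its log2 fold change of 0.49 ± 0.09 lay under the fold threshold. In LK cells the small MAF gene Mafk fell (-0.50 ± 0.11).

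The wider antioxidant system was followed in 9 lists of 116 genes. In LK cells 9 were called higher and 9 lower of 93 tested (9.68% each, against 6.77% and 2.57% of all genes). In MSC 6 and 5 of 102 were called (5.88% and 4.90%, against 7.14% and 4.31%). In LSK cells 0 and 0 of 92 were called, against 0.32% and 0.312% of all genes. There 26 of the 92 had an unadjusted p under 0.05, against 18.5% of all genes. DESeq2 called 9 and 4 of the listed genes in LSK cells. Over all genes 42 were called higher and 41 lower in LSK cells, and the alternative settings called from 19 to 547 higher and from 2 to 681 lower. Genes that supply NADPH had 2 of 9 tested called higher in LK cells, Pgd of the pentose phosphate pathway (1.12 ± 0.10) and Idh1 (1.18 ± 0.25), and 1 lower, Mthfd1 of folate metabolism (-0.57 ± 0.12). Of 18 glutathione S-transferases tested, which couple glutathione to electrophiles, Gstm1 (1.67 ± 0.33) and Gstm4 (1.28 ± 0.31) rose and Gstm5 fell (-0.75 ± 0.16). Among paralogs such as the Gstm genes, shared read pairs were not counted, so their split is uncertain. Of 3 glutathione peroxidases Gpx3, the secreted form, rose from 1.38 to 9.39 CPM (2.78 ± 0.44). Of 14 other thioredoxin and peroxiredoxin genes, 2 rose (Msrb1, a methionine sulfoxide reductase, 1.28 ± 0.14, and Prdx5, 0.81 ± 0.15) and 5 fell, with Prdx4 of the endoplasmic reticulum at -1.03 ± 0.14 and Sesn2 at -0.81 ± 0.21. Blvrb, a biliverdin reductase abundant in red cell precursors, fell (-0.90 ± 0.17), and the exporter gene Abcc4 rose (0.85 ± 0.10).

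In MSC, 2 of 3 superoxide dismutases rose, the mitochondrial Sod2 from 83.3 to 219.8 CPM (1.40 ± 0.12) and the extracellular Sod3 from 54.7 to 219 CPM (2.0 ± 0.10). The glutaredoxin gene Glrx (0.80 ± 0.18), the transferase Gsta3 (2.26 ± 0.38), the exporter gene Abcc1 (0.81 ± 0.10) and Osgin1 (0.65 ± 0.14) were the others called higher. Those called lower were Gpx4, which reduces lipid peroxides (-0.75 ± 0.15), Mgst3 (-1.60 ± 0.28), Msra (-1.07 ± 0.13), Mthfd2 of mitochondrial folate metabolism (-0.68 ± 0.12) and the aminopeptidase Anpep (-0.67 ± 0.11). Of the other NRF2 target genes 2 of 18 tested rose and 0 fell. The median log2 fold change over all 102 genes tested was -0.01, against 0.32 over the members.

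Each member was last matched to the gene with the most similar pattern over the 14 libraries, by Pearson's r of log2 CPM among 11183 genes. Hmox1 was closest to Spp1 (r = 0.995), Prdx1 to Gabarap (0.992), Srxn1 to Scpep1 (0.990), Cat to Wwp1 (0.989) and Slc7a11 to Dram1 (0.984). Gsr was closest to Tmem248 (0.974), Nqo1 to Fgfrl1 (0.967), Gclc to Zdhhc13 (0.965), Txnrd1 to Mark4 (0.924) and Gclm to Susd2 (0.913). The points share 3 populations, so gaps between populations enter each r.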

How the data were processed

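Per the labels and file headers, the authors trimmed reads with fastp 0.20.0, aligned them to GRCm38 with HISAT2 2.0.1 and deposited raw counts of read pairs per gene from featureCounts 2.0.2 (reverse-stranded, Ensembl release 100). The methods name GenomicAlignments instead. Read pairs on several places were not counted by default. All 14 deposited count columns were used, and 1 IL-1β-treated MSC library named in a table header without a count column was not analysed here. Groups came from the labels.

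The quasi-likelihood test of edgeR 4.0.16 under R 4.3.3 was run on the counts (low counts removed by filterByExpr, TMM factors, robust estimateDisp and glmQLFit) within each population, and over the 10 LSK and LK libraries for LK against LSK cells and the interaction. P-values were adjusted by Benjamini-Hochberg over all genes tested. SE is the log2 fold change divided by the square root of F, and 95% intervals cover the spread between libraries. CPM and RPKM were computed from the counts, using the gene lengths of the tables, and summed markers use counted read pairs without TMM. Alternatives were DESeq2 1.42.0, limma-voom (limma 3.58.1), other size factors, filters and thresholds, thinned counts, a joint fit, the replicate number as a block and each library left out. Figures were drawn with matplotlib 3.10.9.

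Gene-centred deviations of same-numbered LSK and LK libraries with PBS correlated at 0.190, 0.115 and 0.446. No source says that such libraries share a mouse. The main fits treated them as unpaired, and the number served as a block in an alternative only. The PBS libraries numbered 1 and those numbered 3 were each other's best match, and those numbered 2 were not. With that block the same 4 members were called. The members and lists were chosen with earlier results of these data known. Named genes were the 10 members, Nfe2l2, Keap1 and Bach1, up to 2 called higher and 2 lower per list and IL-1β comparison, and 1 most similar gene per member. Marker genes are named besides.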

Additional observations from a re-analysis of the deposited data

How the results depend on the processing

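Of the called members, the 4 higher in LK than in LSK cells with PBS were called under every alternative run and with any one PBS library left out. The IL-1β libraries, which share in the estimate of spread, were not left out of that comparison. No member was called in the interaction under any alternative or with any one PBS library left out. In LSK cells 0 members were called higher, but 1 with DESeq2, no filter on low counts, thinned counts, the joint fit or the replicate block. In LK cells 2 were called higher, but 1 in the joint fit, and 1 lower, but 0 in the joint fit and 2 with the replicate block. In MSC 2 were called higher, but 4 with no filter. There Slc7a11 was called as well with DESeq2 (adjusted p = 0.0154) or limma-voom (0.0377). Gsr was called as well in edgeR's test with thinned counts (0.0233) or with no fold threshold (0.0377). In LK against LSK cells with IL-1β 1 was called, but 3 with DESeq2, 0 with limma-voom, and 2 with no filter, with the replicate block or with only the IL-1β libraries fitted. Over all genes the counts moved with these settings too. Genes called higher ranged over the alternatives from 19 to 547 in LSK cells (against 42) and from 421 to 1462 in LK cells (against 869). They ranged from 817 to 1439 in MSC (against 945) and from 127 to 694 in LK against LSK cells with IL-1β (against 314). Genes called lower in LK cells ranged from 68 to 869 (against 330). The causes were not tested.

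In LSK cells 0, 1 and 1 members were called higher without PBS replicates 1, 2 and 3, against 0 in the main fit. Over all genes 36, 280 and 74 were then called higher, against 42, so calls moved beyond the members. In LK cells, without 1 of the PBS libraries, members called ranged from 1 to 2 (higher) and 0 to 2 (lower). Counts are not given for fits with a single library in an arm, which is then assumed to vary like the other arm. For the other lists, genes called in LSK cells were 9 higher and 4 lower with DESeq2 and 7 and 2 with no filter, against 0 and 0. In MSC they were 13 higher with no filter against 6, and 9 lower with DESeq2 or no filter against 5.

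No called member changed sign. Cat in LK cells was at -0.0316 with upper-quartile factors, -0.0159 with no filter and -0.0471 with thinned counts, against 0.01 on the log2 scale. Gclc in MSC, at 0.01, was at -0.00141 with DESeq2, -0.0533 with upper-quartile factors, -0.0895 with thinned counts and -0.00435 as a ratio of mean CPM, and Srxn1 between LK and LSK cells with PBS, at -0.08, was at 0.0355 with no filter. With 1 library left out the log2 fold change ranged, in LSK cells, from -1.97 to 0.30 (Hmox1), -1.59 to 0.19 (Nqo1) and -0.50 to 0.20 (Srxn1). In LK cells it ranged from -0.22 to 0.52 (Hmox1), -0.18 to 0.00452 (Gclm), -0.0260 to 0.12 (Prdx1) and -0.0366 to 0.0988 (Cat), and in MSC from -0.17 to 0.22 (Gclc), -0.0211 to 0.19 (Srxn1) and -0.49 to 0.11 (Prdx1). Between LK and LSK cells it ranged with PBS from -0.39 to 0.0773 (Hmox1) and -0.20 to 0.0317 (Srxn1), and with IL-1β from -0.13 to 2.12 (Hmox1) and -0.53 to 0.10 (Prdx1). The interaction ranged from -0.10 to 2.25 (Hmox1), -1.28 to 0.58 (Nqo1) and -0.49 to 1.18 (Slc7a11).

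Same-numbered libraries of different treatments come from different mice, and their deviations correlated at -0.09 to 0.12, so the block results in LSK and LK cells rest on a shared number only. For LSK and LK libraries with IL-1β the correlation was 0.08. No paired analysis was possible because MSC treatments share only replicate number 2. Depth limits Hmox1 and Slc7a11 in sorted cells, where a library held at most 35 read pairs of either.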
